A study of Homo sapiens with 3 samples.

Results

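Kinesins, dyneins and myosins are the ATP-driven motors of the cytoskeleton, and their genes are described here across 3 RNA-seq libraries of HepG2, a human hepatocellular carcinoma line labelled wild type. Cultures were kept for 48 h with PBS, with A740003 at 20 µM or with A438079 at 20 µM, and each treatment is represented by 1 library. Both compounds are described in the labels as antagonists of P2X7, an ATP-gated ion channel, and PBS was the control. No source used here names a solvent, so the compounds and any solvent given with them cannot be told apart. Genes were taken by symbol: every kinesin named KIF with a number, every chain of the cytoplasmic dyneins (DYNC1 and DYNC2), the dynein light chains (DYNLL, DYNLT and DYNLRB) and every myosin named MYO with a number. This took 98 of 62564 gene rows, 44 kinesin, 29 dynein and 25 myosin rows, of which 15 were pseudogenes. Axonemal dyneins, conventional myosins of muscle and non-muscle type, and kinesins with other names such as CENPE lie outside these names.

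Kinesins and dyneins walk along microtubules, and most kinesins carry cargo towards the plus ends in the cell periphery while cytoplasmic dynein 1 carries cargo back towards the centrosome. A separate group of kinesins builds the mitotic spindle and drives cytokinesis, and dynein 2 returns cargo from the tip of the primary cilium. Myosins move on actin filaments, where class I myosins tie membranes to actin and others such as MYO5 and MYO6 move vesicles. In hepatocytes, some of these motors serve polarised traffic between the blood-facing and the bile-facing surfaces.

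Genes averaging 1 CPM or more, that is counts scaled to library size, over the 3 libraries were taken as measured. A CPM of 1 stood for 19.4 to 19.9 counts, and 57 of the 98 rows were measured, among 12206 measured genes in all. They comprised 27 kinesins, 15 dynein chains and 15 myosins. Of the other rows, 28 had no count in any library, namely 14 of the 15 pseudogenes and 14 genes: DYNC1I1, DYNLRB2, DYNLT5, KIF19, KIF25, KIF26A, KIF2B, MYO15A, MYO16, MYO1G, MYO1H, MYO3A, MYO3B and MYO7B. A count of 0 allows up to 3 counts a library, or 0.151 to 0.155 CPM, for counting error alone. The remaining 13 rows had counts, at most 23 in any library (MYO15B), but fell short of 1 CPM.

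Kinesins share the fold of their ATPase domain, as do myosins, and close relatives can encode the same amino acids with different bases. The pairs printed here were picked because their ratios, described later, lay on opposite sides of PBS. They are examples and not a test, and some other relatives had similar ratios. The 48 coding bases around the P-loop, the stretch that holds the phosphates of ATP, were read from GENCODE 29 on GRCh38 for 3 pairs of close relatives, with the P-loop in capitals.
KIF1B (chr1:10258586-10258633, plus strand): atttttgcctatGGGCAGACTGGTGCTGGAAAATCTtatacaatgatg
KIF1C (chr17:5001315-5001362, plus strand): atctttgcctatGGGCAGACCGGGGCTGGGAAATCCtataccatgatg
MYO9A (chr15:72045814-72045861, minus strand): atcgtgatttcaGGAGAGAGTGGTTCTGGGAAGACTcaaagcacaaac
MYO9B (chr19:17102420-17102467, plus strand): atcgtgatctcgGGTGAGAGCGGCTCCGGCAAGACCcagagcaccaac
KIF27 (chr9:83915307-83915354, minus strand): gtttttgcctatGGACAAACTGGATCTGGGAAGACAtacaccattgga
KIF7 (chr15:89652616-89652663, minus strand): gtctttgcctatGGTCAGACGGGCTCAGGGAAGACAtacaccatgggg
KIF1B and KIF1C differ at 6 of these 48 bases, and MYO9A and MYO9B at 10. All of these differences lie at the third position of a codon, and all 16 codons encode the same amino acid in both members of each pair. KIF27 and KIF7 differ at 8 bases, again all at the third position, and share the amino acid at 15 of 16 codons. G or C bases number 19 in KIF1B against 25 in KIF1C, 22 in MYO9A against 30 in MYO9B, and 21 in KIF27 against 27 in KIF7. A further pair, KIF3A and KIF3C, was read in the same way and departs more: 13 of 48 bases differ, 10 of them at the third position, and 13 of 16 codons encode the same amino acid.

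Levels between genes were compared on the deposited FPKM scale, which is set per gene length. The small light chain DYNLL1, a dimeric hub shared by dynein and myosin 5, had the highest level of the motor genes, with 593 FPKM with A740003, 521 with A438079 and 600 with PBS. Its mean of 571 FPKM ranked 198 of 12206. The light chains DYNLRB1 (220, 200 and 201 FPKM, in the same order of libraries) and DYNLT1 (167, 154 and 169 FPKM) followed. The highest kinesins were KIF5B, the ubiquitous heavy chain of kinesin-1 (119, 118 and 105 FPKM), the microtubule depolymerase KIF2C (102, 91.8 and 103 FPKM) and the chromosome-arm kinesin KIF22 (64.8, 68.8 and 71.8 FPKM). Among the myosins, the mitochondrial MYO19 stood at 40.3, 30.9 and 37.9 FPKM. The heavy chain of dynein 1, DYNC1H1, stood at 39.5, 37.1 and 31.9 FPKM, and its intermediate chain DYNC1I2 at 71.3, 65.9 and 61.6 FPKM.

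**Figure D1:**
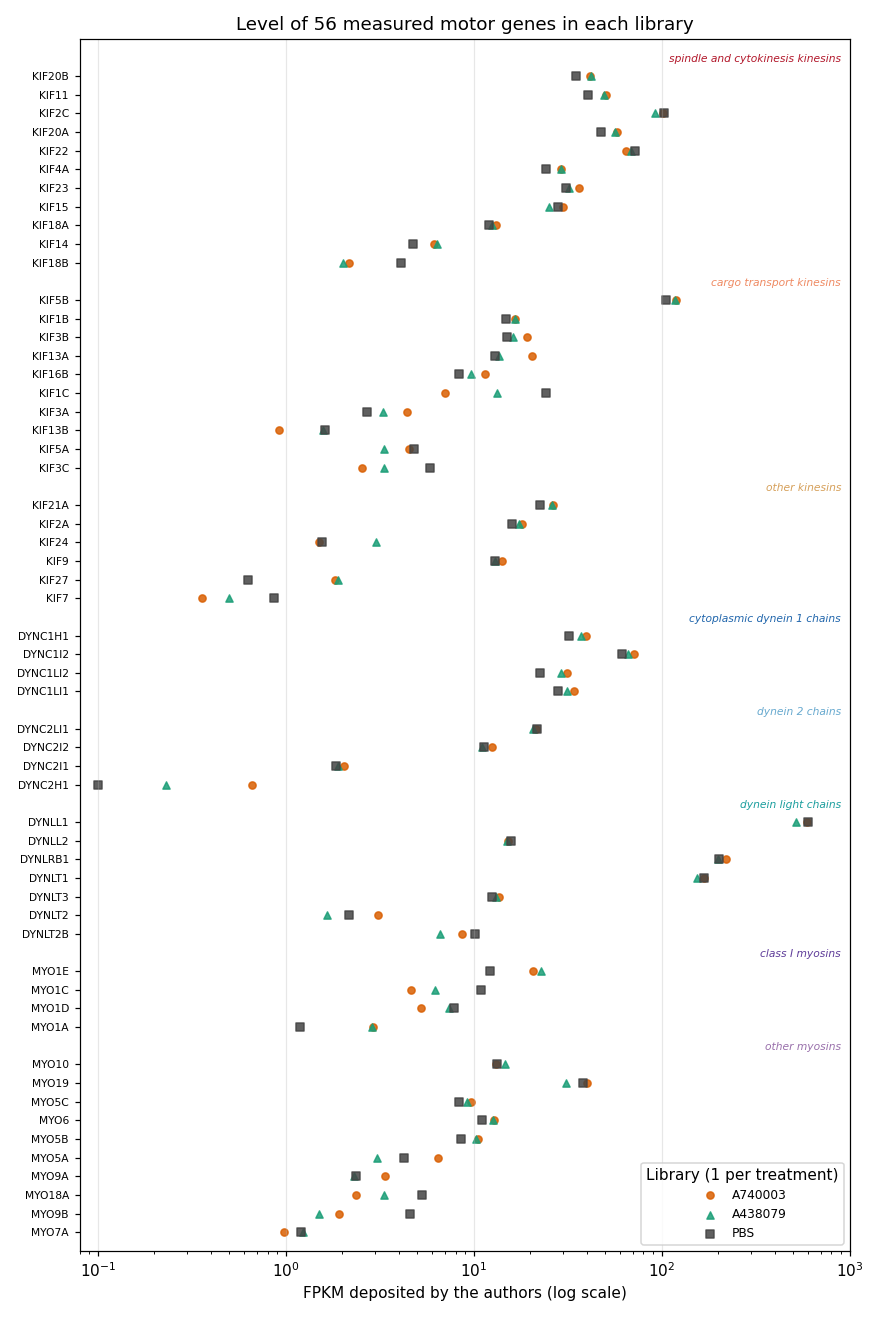
Level of 56 of the 57 measured motor genes in each library, in FPKM deposited by the authors on a log axis, grouped by family and with 1 point per library (circle, A740003; triangle, A438079; square, PBS). Levels run from DYNC2H1 at 0.10 FPKM in PBS to DYNLL1 at 600 FPKM in PBS, and for most genes the 3 points lie close together relative to the differences between genes.

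Some close relatives were expressed very unevenly. Among the LC8 light chains, whose protein products are almost identical, DYNLL1 stood at a mean of 571 FPKM and DYNLL2 at 15.3, 15.1 and 15.8 FPKM. For the Tctex chains, DYNLT3 had 13.7, 13.2 and 12.6 FPKM against the 154 to 169 FPKM of DYNLT1. DYNLRB2, the other roadblock chain, had no count in any library. KIF4B, a near copy of the spindle midzone kinesin KIF4A, had 4, 9 and 7 counts (A740003, A438079 and PBS) where KIF4A had 2313, 2230 and 1882. The summed ratio of this pair was 1.20 with A740003 and 1.19 with A438079 over PBS, the same as that of KIF4A alone. The neuronal intermediate chain DYNC1I1 had no counts, while DYNC1I2 carried 3289, 3040 and 2784.

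The comparison of each antagonist with PBS asks which genes differ in cells under a P2X7 antagonist. A single library for each treatment leaves the differences without a replicate check, and no test of the treatments was made. Each ratio is given with a 95% exact conditional binomial interval that covers counting error alone, and a gene was called higher or lower at a ratio of at least 1.5-fold with an interval that excluded 1. The comparisons of A740003 and of A438079 with PBS use the same PBS library, so that a deviation of that library enters both of them. Motor genes summed to 94096 counts with A740003, 90229 with A438079 and 82648 with PBS. They made up 0.477%, 0.461% and 0.427% of the libraries, and the summed ratios over PBS were 1.11 (1.10 to 1.12) for A740003 and 1.09 (1.08 to 1.10) for A438079. KIF5B alone held 14.0%, 14.4% and 13.7% of these counts.

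With A740003 over PBS, 5 of the 57 measured motor genes were called higher, or 8.77%, where 3.13% of all measured genes were. Another 8 were called lower, or 14.0%, against a background of 10.7%. The genes called higher with A740003 were KIF13A, KIF3A, KIF27, DYNC2H1 and MYO9A. Those called lower were KIF1C, KIF13B, KIF18B, KIF7, MYO1C, MYO18A, MYO9B and MYO7A. With A438079 over PBS, 3 genes were called higher (KIF27, MYO9A and MYO1A), or 5.26% against a background of 1.61%. A further 6 were called lower (KIF1C, KIF18B, KIF7, MYO1C, MYO18A and MYO9B), or 10.5% against 9.47%. The lower shares lie near their backgrounds, and the higher shares rest on 5 and 3 genes. The other 42 measured motor genes were called in no comparison. Across all 57, the median log2 ratio was 0.17 with A740003 and 0.13 with A438079, beside 0.00 for all measured genes in both. Ratios above 1 were seen in 42 genes (73.7%) with A740003 and 38 (66.7%) with A438079, against 50.1% and 49.5% of all genes. Under the same call rule after removal of the trend with transcript GC content and length, described below, the counts were 3 higher and 2 lower with A740003 and 4 higher and none lower with A438079. The backgrounds were then 3.26% and 6.48%, and 1.85% and 4.75%. Among all genes called, the share that was lower moved from 77.4% to 66.6% with A740003 and from 85.4% to 72.0% with A438079 when the trend was removed.

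**Figure D2:**
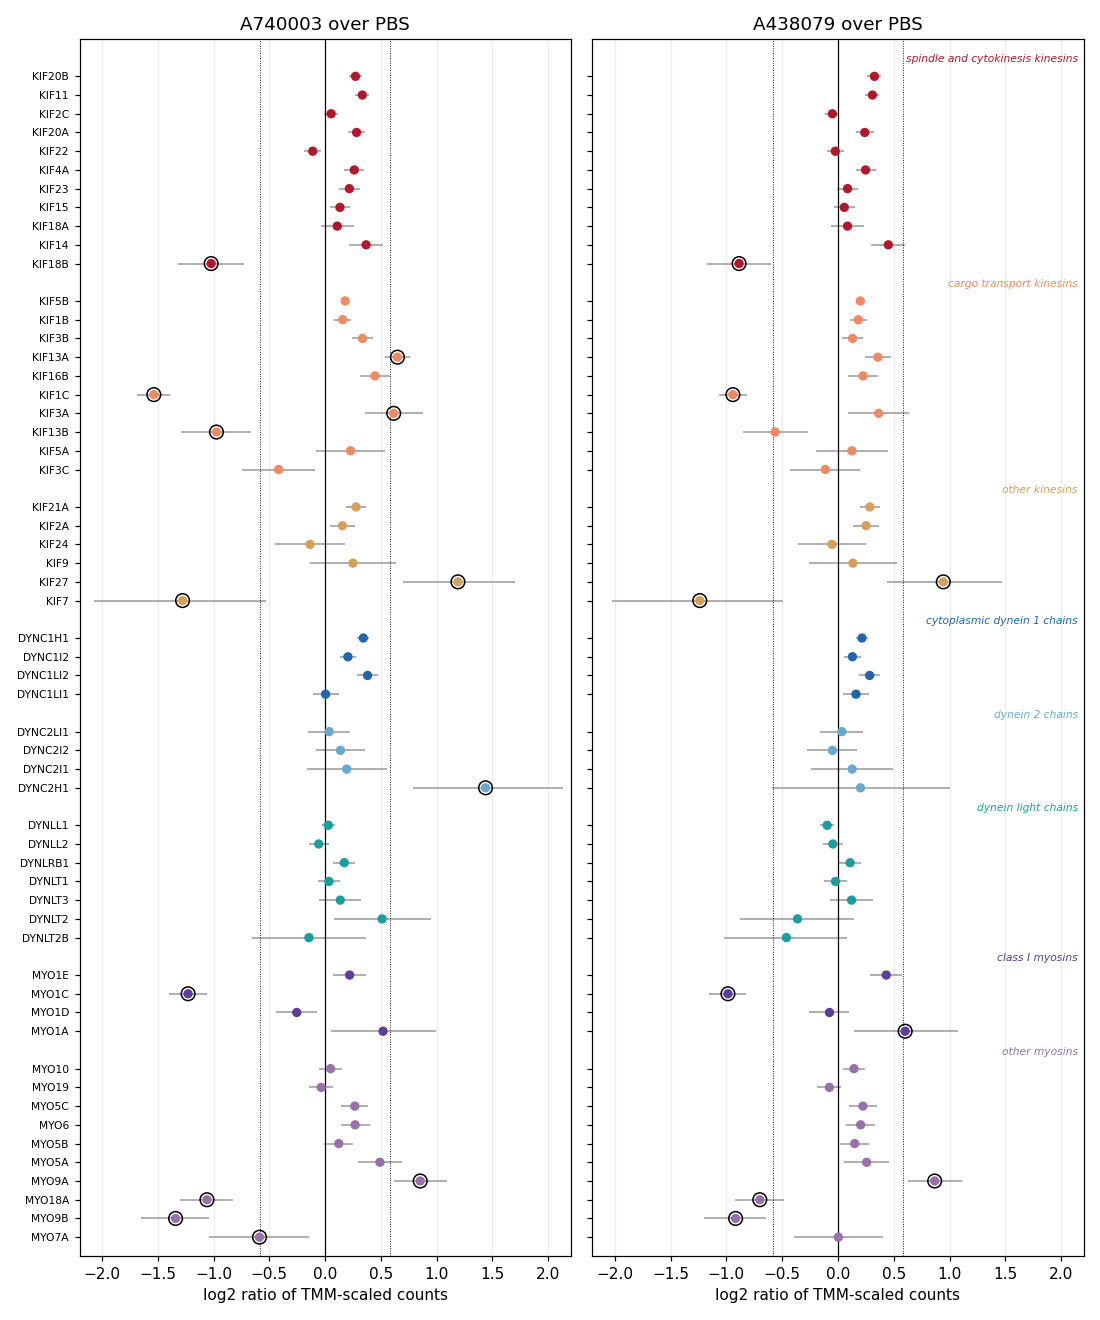
Ratio of TMM-scaled counts over PBS for 56 of the 57 measured motor genes on a log2 axis, for A740003 (left) and A438079 (right), with 1 library per treatment. Points are ratios, bars are 95% counting intervals, dotted lines mark 1.5-fold, and circled points were called: 13 with A740003 and 9 with A438079, while most other points sit slightly right of 0.

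The kinesins of the spindle and cytokinesis were measured in 11 of 12 cases, and 10 of these 11 stayed within 0.926 and 1.29 of PBS with A740003 and within 0.966 and 1.37 with A438079. KIF11, the tetrameric motor that pushes the spindle poles apart, had 4732 counts with A740003, 4528 with A438079 and 3663 with PBS. Both antagonist libraries were above PBS, at ratios of 1.26 (1.21 to 1.32) and 1.24 (1.19 to 1.29), short of the size of a call. KIF20B, which acts at the midbody, followed with ratios of 1.21 and 1.25. KIF14, a cytokinesis kinesin, had the highest ratios of this group at 1.29 and 1.37, and KIF2C and KIF22 were close to 1. KIF18B, which shortens astral microtubules at their plus ends, was the exception: 145 and 155 counts in the A740003 and A438079 libraries against 287 in PBS. Its ratios were 0.493 (0.401 to 0.604) and 0.541 (0.442 to 0.660). KIF18B lies at chr17:44924709-44947711 on the minus strand, and its closest relative KIF18A, which caps microtubules at kinetochores, had ratios of 1.08 and 1.06. The median log2 ratio of the 11 genes was 0.22 with A740003 and 0.09 with A438079. Their median GC content was 42.3%, and with the trend in GC content and length removed, described below, these medians were 0.09 and 0.15. Of 22 proliferation markers from other protein families, 13 and 17 were above PBS, with medians of 0.04 and 0.08, or 0.03 and 0.05 with the trend removed. PLK1, a mitotic kinase, was the only marker called, lower with A740003 at 0.611 (0.571 to 0.654), and stood at 0.701 with A438079. TOP2A, a topoisomerase of dividing cells, had 1.30 and 1.21, and CENPF, a kinetochore protein, 1.26 and 1.23.

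Many genes of the spindle are switched on in G2 and mitosis through the cell-cycle homology region (CHR), a promoter element bound by the DREAM and MuvB complexes, often next to a CCAAT box. The promoters of KIF11 and KIF18B are shown because these 2 genes carry both motifs yet had ratios on opposite sides of 1. The windows around the transcription start are from RefSeq on GRCh38.p14, with matches to the CHR (TTTGAA, or TTCAAA on the other strand) and to CCAAT (or ATTGG) in capitals.
KIF11 (chr10:92592880-92593179, plus strand): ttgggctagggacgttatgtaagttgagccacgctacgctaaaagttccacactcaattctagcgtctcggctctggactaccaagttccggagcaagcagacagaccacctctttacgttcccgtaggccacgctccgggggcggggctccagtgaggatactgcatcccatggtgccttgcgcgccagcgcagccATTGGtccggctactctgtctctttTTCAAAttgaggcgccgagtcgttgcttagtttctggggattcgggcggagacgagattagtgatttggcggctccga
KIF18B (chr17:44947724-44948023, minus strand): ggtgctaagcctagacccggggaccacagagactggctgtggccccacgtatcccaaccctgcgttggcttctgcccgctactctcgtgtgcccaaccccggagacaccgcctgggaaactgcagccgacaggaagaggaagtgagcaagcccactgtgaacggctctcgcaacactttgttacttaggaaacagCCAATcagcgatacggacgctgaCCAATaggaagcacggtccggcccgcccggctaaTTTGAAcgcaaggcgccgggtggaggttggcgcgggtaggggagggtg
The CHR letters were found on either strand in 8 of 12 windows (66.7%) of the 11 measured spindle kinesins. The share was 15.2% of 35114 windows of all genes and 17.2% of 64 windows of measured motor genes. Those 64 windows, from 50 of the 57 measured motor genes, include the 12, which hold 8 of their 11 CHR matches. CCAAT was found in 9 of the 12 (75%), against 34.6% and 35.9%. KIF11 holds 1 of each, and KIF18B 1 CHR match and 2 CCAAT matches. A match is a run of letters and was not tested for binding.

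The kinesins that carry cargo were measured in 10 of 14 cases, the pseudogene KIF28P included, and spread more widely, with median log2 ratios of 0.20 and 0.16. KIF1C, a kinesin-3 that moves vesicles and integrins, was the lowest of the motor genes with A740003. It had 521 counts with A740003, 765 with A438079 and 1472 with PBS. The PBS library was the highest and the A740003 library the lowest, with ratios of 0.345 (0.312 to 0.382) and 0.521 (0.476 to 0.569). KIF1C lies at chr17:4997948-5028401 on the plus strand. KIF1B, the relative shown above that moves mitochondria and vesicles, had 3069, 3039 and 2683 counts, which put both antagonist libraries slightly above PBS at ratios of 1.12 and 1.13.

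KIF13A, which carries endosomal and recycling cargo, had 1784, 1420 and 1110 counts, highest with A740003 and lowest with PBS. Its ratios were 1.57 (1.45 to 1.69), which was called, and 1.28 (1.18 to 1.39), which was not. It lies at chr6:17759183-17987623 on the minus strand. KIF13B, its relative that carries signalling scaffolds to the membrane, ran the other way with 129, 167 and 247 counts. Its ratios were 0.509 (0.408 to 0.633), called lower, and 0.677 (0.553 to 0.828), just short of the size of a call. On the deposited FPKM scale the A438079 ratio of KIF13B was 0.981.

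Kinesin-2, the motor that moves material up the cilium, is a KIF3A and KIF3B heterodimer with the adaptor KIFAP3. KIF3A (chr5:132692628-132737638, minus strand) had 314, 257 and 200 counts, again highest with A740003, at ratios of 1.53 (1.28 to 1.84), called, and 1.29 (1.07 to 1.56). KIF3B had 1.26 and 1.09, and KIFAP3 1.35 and 1.34. KIF3C, an alternative partner of KIF3A, had 0.749 (0.596 to 0.939) and 0.924 (0.744 to 1.15), and its deposited FPKM ratios were lower at 0.436 and 0.571. KIF5B, at chr10:32009010-32056431 on the minus strand, had the most counts of any motor gene, 13195, 13030 and 11363. Its ratios were 1.13 (1.10 to 1.16) and 1.15 (1.12 to 1.18), above PBS in both antagonist libraries and far from a call.

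Of the remaining kinesins 6 of 14 were measured. The relatives KIF27 and KIF7 are the vertebrate counterparts of an insect Hedgehog regulator, with KIF7 at the tip of the primary cilium and KIF27 linked to motile cilia. Both were under 5 CPM and were named after their values were seen, as were DYNC2H1, MYO1A, MYO7A and DYNLT2. KIF27 had 117 and 96 counts with A740003 and A438079 against 50 with PBS, at ratios of 2.28 (1.63 to 3.25) and 1.92 (1.35 to 2.76). KIF7 had 22 and 22 counts against 52, at ratios of 0.413 (0.239 to 0.691) and 0.424 (0.245 to 0.710). The pair thus lay on opposite sides of PBS in both antagonist libraries, although both calls of KIF7, of 64.1% GC, were lost once the trend described below was removed. KIF2A and KIF21A had ratios between 1.11 and 1.22, and the intervals of KIF24 and KIF9 included 1.

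The 4 measured chains of cytoplasmic dynein 1 were all above PBS with both antagonists, and none by the size of a call. DYNC1H1 (chr14:101964510-102056443, plus strand), the heavy chain with the ATPase ring, had 6252, 5572 and 4809 counts. The libraries ran in the order A740003, A438079 and PBS, and the ratios were 1.27 (1.22 to 1.32) and 1.16 (1.12 to 1.21). DYNC1LI2, a light intermediate chain that binds cargo adaptors, had 1.30 (1.22 to 1.39) and 1.22 (1.14 to 1.30), while DYNC1LI1 had 1.0 (0.926 to 1.09) and 1.12 (1.03 to 1.21). Summed over the chains, the ratio was 1.21 (1.18 to 1.24) with A740003 and 1.15 (1.12 to 1.18) with A438079. Dynactin, the cofactor that makes dynein processive, had 12 measured subunits with none called, and its medians of 0.04 and 0.01 lay near those of all genes.

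Dynein 2, the return motor of the cilium, had 4 measured chains, and DYNC2H1, its heavy chain at chr11:103109410-103479863 on the plus strand, was the only one called. It had 75 counts with A740003, 31 with A438079 and 27 with PBS. The A740003 library stood above the other two, at a ratio over PBS of 2.71 (1.72 to 4.38), while A438079 had 1.15 (0.664 to 2.0). The deposited FPKM values gave ratios of 6.60 and 2.30 for this gene. The other chains, DYNC2LI1, DYNC2I1 and DYNC2I2, ranged from 0.966 to 1.14 with intervals that included 1.

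The dynein light chains are shared between motors and have roles outside them. Of the 7 measured, none was called over PBS, and their medians were 0.03 and -0.05, the former of which was -0.01 on the FPKM scale. DYNLL1 had 4754, 4241 and 4545 counts, lowest with A438079, at ratios of 1.02 (0.979 to 1.06) and 0.935 (0.896 to 0.975). DYNLL2 had 0.961 and 0.969, DYNLT1 1.02 and 0.985, DYNLT3 1.10 and 1.09, and DYNLRB1 1.13 and 1.08. The counts of the abundant chains were large enough that a 1.5-fold difference lay far outside their intervals.

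Among the class I myosins 5 of 8 were measured. MYO1C, at chr17:1464186-1492812 on the minus strand, binds membrane phosphoinositides and takes part in exocytosis. It had 391, 450 and 893 counts, with both antagonist libraries well under PBS at 0.427 (0.378 to 0.481) and 0.505 (0.450 to 0.566). MYO1E, which acts in endocytosis, had 1.16 and 1.35 by counts and 1.70 and 1.88 by the deposited FPKM. MYO1D had 0.839 (0.738 to 0.952) and 0.949 (0.838 to 1.07). MYO1A, known from the intestinal brush border, had 97 and 100 counts against 66, and its ratio of 1.52 (1.10 to 2.10) with A438079 was called whereas 1.43 (1.04 to 1.99) with A740003 was not. On total-count scaling the A438079 call of MYO1A was lost.

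The pair of class IX myosins, which carry a RhoGAP domain in the tail, ran apart. MYO9A (chr15:71822289-72118577, minus strand) had 411 and 404 counts with the antagonists and 222 with PBS, at ratios of 1.81 (1.53 to 2.14) and 1.82 (1.54 to 2.16). MYO9B (chr19:17075781-17214537, plus strand) had 128 and 167 against 316, at 0.395 (0.319 to 0.487) and 0.529 (0.436 to 0.641). The antagonist libraries were thus on opposite sides of PBS for these relatives. By the deposited FPKM the ratios of MYO9A were 1.44 and 0.983, so its A438079 difference was not seen in that unit. MYO18A, a myosin with weak motor activity that ties the Golgi to actin (chr17:29071124-29180412, minus strand), had 222, 277 and 451 counts, lowest with A740003, at 0.480 (0.407 to 0.565) and 0.615 (0.528 to 0.716).

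MYO7A, the myosin of hair-cell stereocilia, had 73, 107 and 107 counts. Its ratio of 0.665 (0.487 to 0.904) with A740003 was called by a narrow margin, and with A438079 it was 1.0. The A740003 call was lost with total-count scaling, with DESeq2 size factors and in FPKM. The vesicle myosins were higher by less than a call: MYO5A at 1.41 (1.23 to 1.61) and 1.19 (1.04 to 1.37), MYO5C at 1.20 and 1.17, and MYO5B at 1.09 and 1.11. MYO6, which moves towards the minus end of actin, had 1086, 1010 and 879 counts and ratios of 1.20 (1.10 to 1.32) and 1.15 (1.05 to 1.26). MYO19 and MYO10, the filopodial myosin, lay between 0.948 and 1.10.

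Base composition ran along with these differences. The transcripts of measured motor genes had a median GC content of 47.1%, from 34.2% to 64.6%, against 47.9% for all measured genes, and a median length of 5082 bases against 3239. The 8 genes called lower with A740003 had 54.6% to 64.1% GC, and the 5 called higher 37.8% to 46.4%. With A438079 the 6 called lower had 54.9% to 64.1%, and the 3 called higher 39.9% to 52.2%. The matching ranges over all measured genes called were not computed, so these ranges cannot be read as particular to motor genes. Across the 57 genes the log2 ratio and GC content had a Pearson r of -0.66 and a Spearman rho of -0.57 with A740003, and -0.64 and -0.62 with A438079. For the 11907 measured genes with a known GC content, the values were -0.36 and -0.38, and -0.38 and -0.46. These are descriptions across genes of the same libraries, and genes are not independent replicates. Genes were also put into 4 classes of equal size by GC content. In the top class, above 55.9%, the log2 ratios of the 9 motor genes had a median of -1.02 with A740003 and -0.70 with A438079. All genes of that class had -0.27 in both, but the classes took no account of length. Medians of genes near in both GC content and length, used in the trend step below, differed within this class. With A740003 they ran from -1.26 for MYO9B (7623 bases) to -0.18 for KIF22 (2505 bases). With A438079 these genes had -0.93 and -0.19. After subtraction, the 9 genes ran from -0.67 (KIF18B) to 0.49 (MYO7A) with A740003 and from -0.56 to 0.80 with A438079. The -0.27 is thus no like-for-like value for the longer motor genes. In the bottom class, below 41.8%, all 15 motor genes were above PBS with each antagonist, with medians of 0.20, beside 0.12 for all genes.

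**Figure D3:**
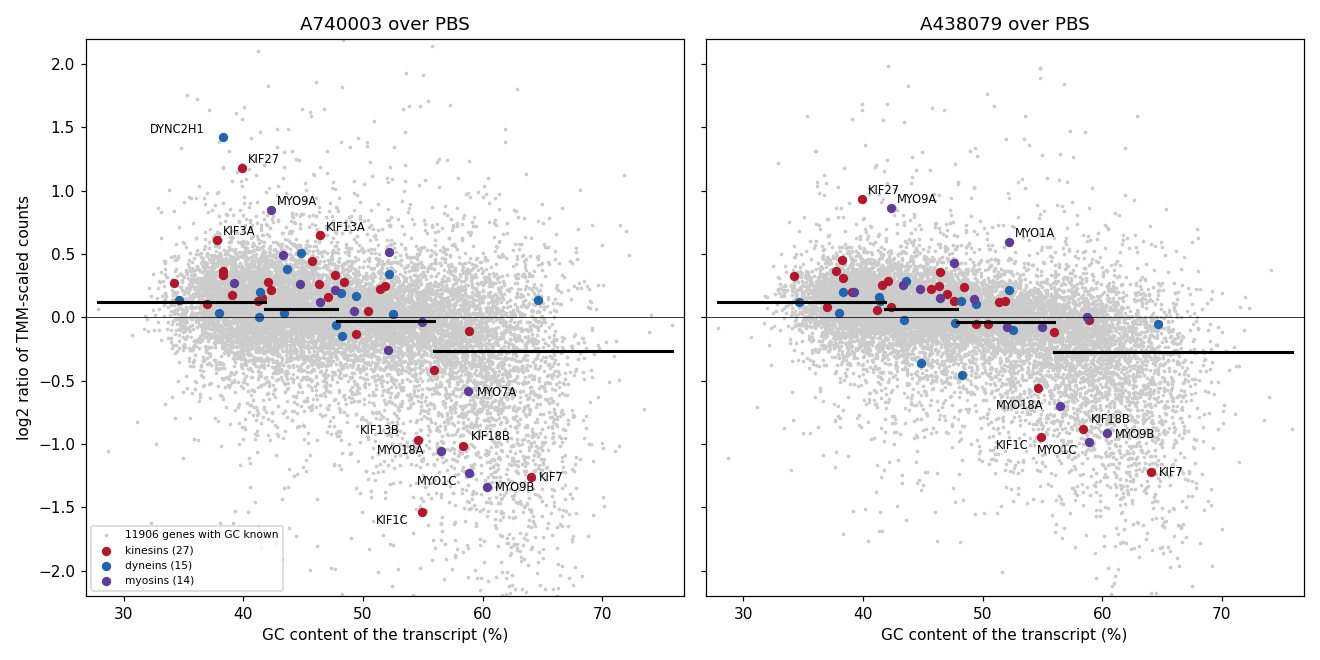
Log2 ratio of TMM-scaled counts over PBS against transcript GC content in percent, for A740003 (left) and A438079 (right). Grey points are 11906 of the 11907 measured genes with a known GC content, of which 82 and 42 lie beyond the axis limits of 2.2. Coloured points are 56 of the 57 motor genes, and called ones are named. Black bars are medians of all 11907 genes in 4 classes of GC content. The motor genes called lower lie at the right of each panel, between 54.6% and 64.1%.

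Relatives by name were also compared by GC content, and the similarity of their proteins was not measured. Among genes that share a stem and differ in the last letter, 23 pairs from 10 stems were measured. The relative with the higher GC content had the lower ratio in 17 pairs with A740003 and in 19 with A438079, with median differences in log2 ratio of -0.46 and -0.30. With the trend described next removed, these were 17 and 16 pairs, with medians of -0.32 and -0.14. Pairs of 1 stem share members, and both comparisons share the PBS library. The widest gap with A740003 was that of MYO9A and MYO9B (42.3% and 60.4% GC), at -2.19. KIF1B and KIF1C (47.1% and 54.9%) followed among the kinesins at -1.69, KIF13A and KIF13B at -1.62, and KIF18A and KIF18B (37.0% and 58.4%) at -1.13. MYO1A (52.2%) ran against this order with both antagonists, with a higher ratio than MYO1D (52.1%) and MYO1E (47.6%). Other pairs did so with A740003. KIF20A (48.4%) had a ratio of 1.22 against 1.21 for KIF20B (34.2%), and KIF5A (51.4%) 1.17 against 1.13 for KIF5B (39.1%). With A438079 the KIF20 and KIF5 pairs followed the order.

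When the median of the 201 genes nearest in GC content and length was subtracted, part of these differences went with it. KIF1C and KIF18B remained called lower with A740003, at trend-removed log2 ratios of -1.08 and -0.67, and with A438079 they were -0.54 and -0.56. MYO1C was -0.55 and -0.46, KIF13B -0.52 and -0.17, and MYO18A -0.34 and -0.11. KIF7 was -0.21 and -0.41, and neither of its calls remained. MYO9B was at -0.08 and 0.02, level with genes of its own composition. MYO7A changed sign with A740003, to 0.49, and with A438079 it moved from 0.00 to 0.80 and was then called higher. KIF27 and MYO9A remained called higher with both antagonists (1.06 and 0.79, and 0.63 and 0.70), DYNC2H1 with A740003 at 1.20 and MYO1A with A438079 at 0.65. The A740003 calls of KIF13A and KIF3A were lost, at 0.54 and 0.42. DYNC1H1, of 52.2% GC, moved up to 0.53 and 0.41. The median over the 57 genes was 0.09 with each antagonist after the trend was removed, and Spearman's rho with GC content was -0.25 and -0.15. Beyond this step the part of base composition in the differences was not tested.

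**Figure D4:**
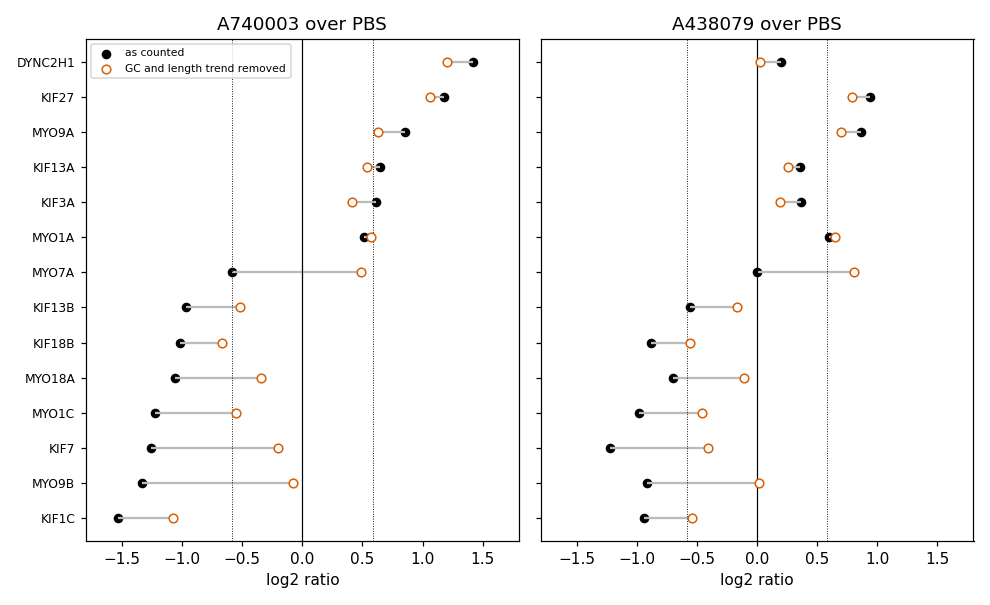
Log2 ratio over PBS (pseudocount of 0.5 counts) of the 14 motor genes called with at least 1 antagonist, as counted (filled) and after the trend with transcript GC content and length was removed (open), for A740003 (left) and A438079 (right). Dotted lines mark 1.5-fold, and the largest shifts belong to the genes of high GC content at the bottom, such as MYO9B, which moves from -1.34 to -0.08 with A740003.

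Of the 7 measured motor genes on chromosome 17, KIF1C, MYO1C, MYO18A and KIF18B were called lower with each antagonist. With the trend removed, KIF1C and KIF18B remained called with A740003, and none with A438079. Of all 736 measured genes of that chromosome, 13.6% and 13.9% were called lower, and their median GC content was 53.6%.

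The antagonists, given at equal dose and for equal time, can also be compared directly, from a single library of each. PBS counts are not part of these ratios, but the PBS library enters the scaling factors and the filter on mean CPM. With A740003 over A438079, 2 motor genes were called higher against a background of 2.44%, and 2 lower against 2.8%. DYNC2H1 was higher with A740003 at 2.36 (1.53 to 3.70), from 75 against 31 counts. DYNLT2, a Tctex-type light chain, had 111 counts with A740003, 59 with A438079 and 76 with PBS, and its ratio between the antagonists was 1.83 (1.32 to 2.56). Over PBS it had 1.42 (1.05 to 1.93) with A740003 and 0.778 (0.544 to 1.11) with A438079. Neither was called, and the A438079 interval included 1. KIF1C was lower with A740003 at 0.663 (0.592 to 0.742) and MYO7A at 0.664 (0.486 to 0.903), both at the edge of the size of a call and both lost with total-count scaling. The median log2 ratio over the 57 genes was 0.01, and the summed ratio 1.02 (1.01 to 1.03). All 5 measured class I myosins were lower with A740003 than with A438079, and 13 of the 15 dynein chains were higher, with summed ratios of 0.940 (0.910 to 0.971) and 1.06 (1.04 to 1.08). KIF13A, at 1.22 (1.14 to 1.31), and KIF13B, at 0.752 (0.593 to 0.952), also differed beyond counting error without being called. KIF11, KIF5B, KIF18B and MYO9A differed little, with intervals of 0.977 to 1.06, 0.962 to 1.01, 0.721 to 1.15 and 0.861 to 1.14.

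Partners of the motors were read from fixed lists. Of 15 measured dynein adaptors and regulators, 1 was called higher and 3 lower with A740003, and none higher and 2 lower with A438079. The shares over all measured genes were 3.13% higher and 10.7% lower with A740003, and 1.61% and 9.47% with A438079, and these apply to each of the lists below. NIN, a centrosomal adaptor, had 1.56 (1.44 to 1.69) and 1.38 (1.26 to 1.5). RAB11FIP3, which links recycling endosomes to dynein, had 0.612 (0.541 to 0.691) and 0.638 (0.565 to 0.720), and BICD2, a Golgi adaptor, 0.644 (0.554 to 0.747) and 0.813 (0.706 to 0.935). BICDL1, named after its values were seen, had 24 and 37 counts against 99 with PBS. With the trend removed, RAB11FIP3, of 64.5% GC, turned to log2 ratios of 0.35 and 0.18. NIN and BICD2 lost their A740003 calls, at 0.42 and -0.44, and BICDL1 alone of this list remained called, lower with both antagonists. Of 12 measured kinesin light chains, adaptors and C-terminal kinesins, 4 were called lower with each antagonist and none higher. They were KIFC3, a minus-end kinesin, at 0.431 (0.337 to 0.548) and 0.519 (0.411 to 0.652), the light chain KLC2 at 0.623 and 0.582, and the scaffolds MAPK8IP1 and MAPK8IP3, which were named after their values were seen. The median GC content of that list was 58.6%, and with the trend removed none of its members was called lower with either antagonist. The light chain KLC1, at 0.991 and 1.20 as counted, was then called higher with both, at log2 ratios of 0.90 and 0.96.

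Among 12 genes of conventional myosin 2, 2 were called lower with each antagonist. MYH14, a non-muscle heavy chain of 63.7% GC, had 123, 205 and 408 counts at ratios of 0.294 (0.238 to 0.361) and 0.503 (0.424 to 0.597), and MYL9, named after its values were seen, 0.564 and 0.664. With the trend removed, MYH14 stood at log2 ratios of -0.37 and -0.04. The heavy chain MYH10 had 1.33 and 1.21, and MYH9 0.787 and 0.862. MYH9, of 58.6% GC, turned to log2 ratios of 0.69 and 0.54 with the trend removed, the former called higher, and neither MYH14 nor MYL9 remained called. Of 10 measured tubulins, TUBB6, likewise named afterwards, was lower with A740003 at 0.546 (0.331 to 0.884), TUBB3 stood at 1.47 (1.32 to 1.64) and 1.04 (0.921 to 1.17), and the medians were 0.20 and 0.07. The A740003 value of TUBB3 was called higher with the trend removed.

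Facts of the whole libraries bear on these values. The 3 libraries held 19719967, 19591604 and 19359004 counts, with a median of 1016, 946 and 893 counts per measured motor gene, so the counting error was small for most members and wide for those under 5 CPM. Of the hepatocyte markers, ALB, AFP, APOA1, APOB, SERPINA1, FGB and HNF4A were expressed and TTR was low at 4.53 to 7.49 CPM. The list summed to 18008, 19447 and 17607 CPM in the A740003, A438079 and PBS libraries, while its members moved apart. With A740003 over PBS, ALB stood at 0.745, AFP at 0.713 and FGB at 0.739, against 1.39 for APOB and 1.65 for TTR, the only one called over PBS. FGB was called lower with A740003 than with A438079, at 0.665. Of 9 matched markers of other cell types, COL1A1, COL3A1, KRT7, PTPRC and VWF were at 0 and DES had 1 count in PBS, while KRT19, CD68 and ACTA2 were expressed, and the list summed to 126, 146 and 148 CPM. In these bulk libraries, fewer cells of a kind and less RNA per cell cannot be told apart. The deposited annotation placed 54 of the 57 measured motor genes in the motor protein pathway. Expected counts were whole in all 3 libraries for 36 of the 57 (63.2%), and the reads of the others, among them KIF1C, KIF13B, KIF18B, KIF3A and KIF27, may have been shared with other rows.

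For 12 of the 57 genes the deposited FPKM and the counts gave log2 ratios over PBS that differed by more than 0.4 with at least 1 antagonist. The length that the deposited values imply for these genes, counts per FPKM and library, differed between the libraries. For DYNC2H1 it was 5763, 6880 and 13947 bases in the A740003, A438079 and PBS libraries, for MYO9A 6166, 8927 and 4880, and for MYO1A 1690, 1779 and 2865. For MYO5A it was 4231, 7440 and 4524 bases, which put its FPKM ratio with A438079 at 0.717 where counts gave 1.19. Counts are used throughout for the ratios.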

How the data were processed

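RNA of 3 HepG2 cultures was sequenced, 1 library per treatment, after RNeasy extraction and library construction with a SMARTer mRNA kit, per the labels' protocols. The authors deposited expected counts per gene, which are estimates that need not be whole, and FPKM values per gene, scaled by the authors for length and depth. The submitters' processing notes name GRCm38, a mouse build, while the rows carry human gene identifiers, which leaves the build unclear. The sources used here name no aligner, counter, annotation or use of strand, and overlapping and antisense genes are therefore uncertain. Of 62680 rows, 116 without an Ensembl identifier, with 0.0792%, 0.0775% and 0.0853% of counts in A740003, A438079 and PBS, were left out.

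Expected counts were rounded, although the design had been written for raw counts, and library sizes were adjusted by the TMM method of edgeR 4.0.16 under R 4.3.3, with factors of 1.01, 0.989 and 1.0. No dispersion can be estimated from 1 library per treatment, so no p-value was computed. Ratios carry exact conditional binomial (Clopper-Pearson) 95% intervals (SciPy 1.17.1), which cover counting error alone. A call needed at least 1.5-fold, an interval that excluded 1 and a mean of at least 1 CPM. Log2 ratios used a pseudocount of 0.5 counts. GC content and length came from the longest protein-coding transcript in GENCODE 29 (GRCh38), for 11907 of 12206 genes (97.6%) and all 57 motor genes. The trend step subtracted the median of the 201 nearest genes. The steps were tested on simulated data. The trend added there followed GC content alone and was smaller than the largest removed here, so a joint trend with length was not checked.

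The members and lists were chosen with earlier results of these data known. Values in full were given for motor genes called at a mean of at least 5 CPM, the 3 highest of each family by FPKM, reference genes of each family and near-identical pairs, and for up to 3 genes of each partner list. Others are marked in the text, and 1 gene is not reported here. The alternatives tried were scaling by total counts or by size factors of DESeq2 1.42.0, other filters (5 CPM, none), genes with whole counts (within 0.005), FPKM with a pseudocount of 0.1, a fold of 2 and the trend step. Single genes under other scalings and families under total counts were added after the data were seen.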

Additional observations from a re-analysis of the deposited data

Results flagged for a closer look

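KIF17, a kinesin-2 of dendrites and cilia, was below the filter on low genes and in no comparison of the report. It had 15 counts in the A438079 library, 3 in the PBS library and 2 in the A740003 library. It is listed here because its signal with A438079 stood above the control, at a ratio of 5.01 with a counting interval of 1.42 to 27.0. Without the filter it was called higher with A438079 over PBS and lower with A740003 over A438079. The counts come from 1 library per treatment.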

How the results depend on the processing

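With 1 library per treatment no replicate could be left out. No paired analysis was possible because each treatment had 1 library and no test was made. With A740003 over PBS the 5 motor genes called higher became 3 at a mean of at least 5 CPM, 3 among genes with whole counts, 3 with the GC content and length trend removed and 2 at a fold of 2. The 8 called lower became 5 among genes with whole counts and 2 with the trend removed. With A438079 over PBS the 3 called higher became 1 at 5 CPM, 5 in FPKM and 0 at a fold of 2. Calls in FPKM used the 1.5-fold size alone, without an interval. The 6 called lower with A438079 became 0 with the trend removed and 1 at a fold of 2. With A740003 over A438079 the 2 called higher became 0 at 5 CPM and 1 at a fold of 2. The 2 called lower became 0 on total counts, 1 at 5 CPM, 1 among genes with whole counts, 0 with the trend removed and 0 at a fold of 2. Stricter filters and whole counts test fewer genes by construction, and for the other settings the cause was not tested. Median log2 ratios of all measured motor genes ranged from 0.09 to 0.18 with A740003 over PBS, from 0.05 to 0.14 with A438079 over PBS and from -0.01 to 0.05 between the antagonists. Called genes changed sign in 3 cases: MYO7A with A740003 (0.49) and MYO9B with A438079 (0.019) when the trend was removed, and MYO9A with A438079 in FPKM (-0.0237). The median of all genes moved by less than 0.1 on the log2 scale under every scaling tried. Depth limits the members under 5 CPM, whose intervals are wide.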

Other observations

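Kinesins outside the chosen names were measured in 5 cases by the deposited motor domain annotation: CENPE, KIFC1, KIFC2, KIFC3 and STARD9. CENPE, the kinetochore kinesin that brings chromosomes to the spindle equator, had 2368, 2090 and 1801 counts with A740003, A438079 and PBS. Both antagonist libraries were above PBS, at ratios of 1.28 (1.21 to 1.36) and 1.16 (1.09 to 1.24). KIFC1, which bundles microtubules towards the spindle poles, had 1717, 1472 and 1606 counts, on either side of PBS at 1.04 (0.974 to 1.12) and 0.918 (0.855 to 0.986). The cargo adaptor TRAK2, which joins mitochondria to kinesin and dynein, had 1.39 (1.29 to 1.49) and 1.30 (1.21 to 1.40), and its relative TRAK1 had 0.877 (0.769 to 1.0) and 0.920 (0.807 to 1.05). These genes were named after their values were seen.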
